A study of Saccharomyces cerevisiae with 6 samples.

Results

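The genes described here encode the subunits of the 3 nuclear RNA polymerases of budding yeast (Saccharomyces cerevisiae), the initiation factors TFIIIC and TFIIIB of RNA polymerase III (Pol III) and the Pol III repressor Maf1. The choice was made with earlier results of these data known. The genes were taken by symbol: RPA, RPB or RPC followed by digits, or 13 further names such as RPO21, RPO31, RET1, TFC1 and MAF1. This gave 40 genes, on 47 of the 9275 probe sets tested, out of 5656 genes that a probe set of the array names on its own. RNA came from 3 cultures of strain Y118, whose histone H2B carries the K123R substitution, and 3 cultures of strain Y117, which is wild type. The substitution replaces with arginine the lysine that receives ubiquitin in H2B. Early stationary cells of both strains were put into fresh YPD, which is rich medium, at an OD of 0.3, and 7 hours of growth at 30 degrees brought them to an OD of 2. There was 1 array of the Affymetrix S98 design per culture, on which 1 or more probe sets read a gene, and a value is the scaled signal of a probe set. Other differences between the strains cannot be told apart from the mutation.

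RNA polymerase I (Pol I) makes the large ribosomal RNA precursor, Pol II makes messenger RNAs and many small RNAs, and Pol III makes transfer RNAs, 5S ribosomal RNA and other short RNAs. Each enzyme is built around a pair of large catalytic subunits. A set of small subunits is common to all of them, Pol I and Pol III share a further pair, and each enzyme has subunits of its own. Growing yeast spends most of its transcription on ribosomal and transfer RNA, and Maf1 shuts Pol III down when nutrients run out or cells are stressed.

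The arrays had median signals between 131 and 139. H2B K123R replicate 1 stood apart: its log2 signals correlated at 0.958 and 0.969 with the other arrays of its group, while those 2 arrays correlated at 0.991 with each other and wild-type arrays at 0.992 to 0.995. The ratio of the 3' to the 5' actin control signal was 1.98 on that array and between 1.40 and 1.59 on the other 5 arrays, while the same ratio of the TBP control was 2.26 there, the lowest, and 2.33 to 2.69 on the others. Differences that moved by over 1.5 times or changed sign when that array was left out are given with and without it. As a check of mating type, a-specific genes read 423 to 5629 and alpha-specific genes 35.5 to 233 over all arrays. At an adjusted p under 0.05 (limma), 2 of 6 a-specific genes fell in H2B K123R and 2 of 4 alpha-specific genes rose. Of all genes, 8.98% changed either way. All 6 a-specific genes had negative log2 differences (median -0.24) and all 4 alpha-specific genes positive ones (median 0.49), against 60.4% positive over all genes. HTB1, an H2B gene, read 4392, 4209 and 5078 in H2B K123R, against 5423, 6046 and 6039 in wild type (log2 difference -0.36, adjusted p = 0.0739), and HTB2, the other H2B gene, read between 2.53 and 11.3 on all arrays. A probe set does not report the substitution, so these signals do not check the strain labels. RNA came from whole cultures, so fewer cells with a transcript and less of it per cell cannot be told apart. Each array was scaled to the same mean, and total RNA per cell was not measured.

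No polymerase gene passed the test between H2B K123R and wild type. Of the 47 probe sets, 0 had an adjusted p under 0.05 (limma, adjusted over all 9275), against 6.68% of all probe sets. The lowest adjusted p of a member was 0.0609. At an unadjusted p under 0.05 there were 7 of the 40 genes (17.5%), 6 of them higher in H2B K123R and 1 lower, against 30.7% of all genes. The signals of the groups did not overlap for 12 genes (30.0%), against 39.3% of all genes; 9 were higher in H2B K123R and 3 lower, against 25.5% and 13.8% of all genes. Other processing gave at most 11 passing member probe sets, with array weights, where 31.1% of all probe sets passed, and 5 after cyclic loess, where 9.95% did. Among probe sets above the median signal 3 of 43 members passed, against 13.0%, and in a fit over the means of each gene's probe sets 4 of the 40 genes passed, against 14.9% of all genes. A single probe set per gene, the one with the highest mean signal, stands for the gene in these and the following counts.

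The differences were small where they could be measured well. The log2 difference, H2B K123R minus wild type on the log2(signal + 16) scale, lay within 1.5-fold either way for 39 of the 40 genes, the exception being RPO21. Its whole 95% interval lay within 1.5-fold for 30 of them (75.0%), against 54.4% of all genes, and only the intervals of RPA14 and RPO21 reached past 2-fold. The differences were positive for 25 genes and negative for 15, with a median of 0.09, against 60.4% positive and a median of 0.08 over all genes. Without H2B K123R replicate 1, 19 were positive and the median was -0.02, against 54.5% and 0.03 over all genes.

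**Figure D1:**
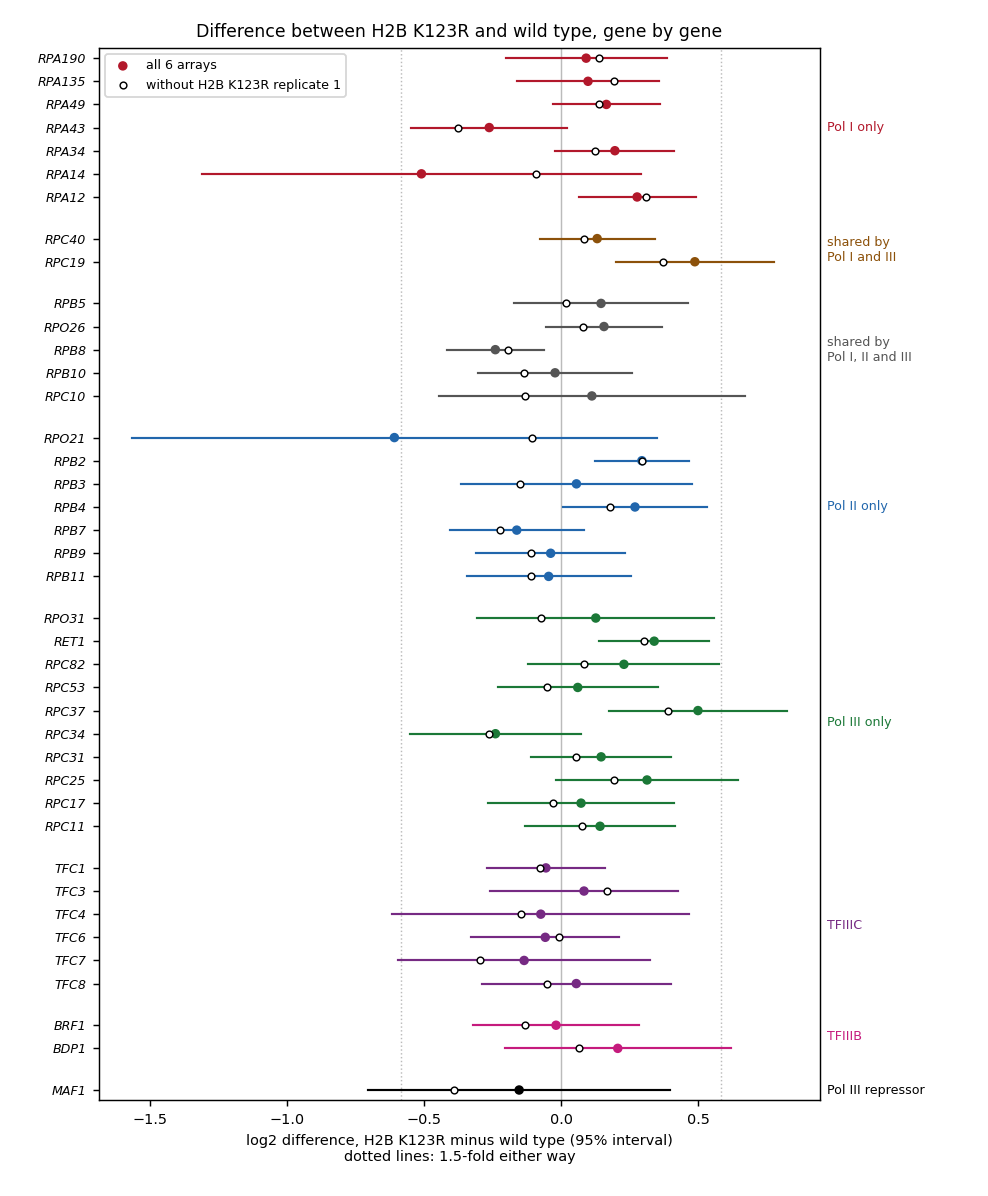
The log2 difference between H2B K123R and wild type for each of the 40 genes, by role, with its 95% interval on all 6 arrays (filled points and bars) and the value without H2B K123R replicate 1 (open points). Most intervals include 0 and lie inside the dotted lines at 1.5-fold, and those of RPA14 and RPO21 are wide.

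Pol I has 7 subunits of its own, of which 5 had positive and 2 negative differences. RPA12, whose product is a small zinc-ribbon subunit needed for RNA cleavage and release, read 1124, 1114 and 1299 in H2B K123R, against 990, 997 and 917 in wild type. All mutant arrays lay above all wild-type arrays, the log2 difference was 0.28 with an interval of 0.06 to 0.49, and the gene did not pass (adjusted p = 0.118). RPA43, which encodes the stalk subunit that binds the initiation factor Rrn3, read 933.9, 687.7 and 786.7 in H2B K123R, against 996.6, 944.8 and 934.3 in wild type. Its groups lay next to each other without overlap, and its log2 difference was -0.26 (adjusted p = 0.234). Without H2B K123R replicate 1 this was -0.37 and passed (adjusted p = 0.0417, against 11.0% of all probe sets passing in that fit); over its 14 alternatives over probe sets the adjusted p lay between 0.0160 and 0.427.

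The paired subunits Rpa49 and Rpa34, which act in elongation, had differences of 0.17 and 0.20, and RPA34, at 0.12 without replicate 1, did not overlap between the groups (1804, 1589 and 1516 in H2B K123R, 1484, 1449 and 1338 in wild type). The catalytic subunit genes overlapped between the strains: RPA190, the largest, averaged 3250 ± 223 in H2B K123R and 3068 ± 453 in wild type (mean ± SD, n = 3 in either strain, as for all such values) on its brightest probe set, and RPA135, the second largest, averaged 2832 ± 320 and 2639 ± 224. Their differences were 0.09 (interval -0.20 to 0.39) and 0.10 (interval -0.16 to 0.36), and 0.14 and 0.19 without replicate 1. RPA14, which encodes the partner of Rpa43 in the stalk, read 452, 1183 and 1029 in H2B K123R, against 1245, 1141 and 1144 in wild type. The low value was that of replicate 1, and the log2 difference was -0.51 with it and -0.09 without it (adjusted p = 0.396 and 0.561). RPA43 and RPA190 were the only members next to each other in the gene order of the R64 assembly.

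Pol I and Pol III share Rpc40 and Rpc19, the counterparts of the bacterial alpha subunits that nucleate assembly, and both genes were higher on every H2B K123R array than on any wild-type array. RPC19 read 2703, 2234 and 2024 in H2B K123R, against 1663, 1748 and 1512 in wild type. Its means of 2320 ± 347 and 1641 ± 119 differ by 0.49 (interval 0.20 to 0.78, 1.40-fold), with an adjusted p of 0.0633. RPC19 passed in 4 of 14 alternatives of the fit over probe sets, including the one without H2B K123R replicate 1 (0.37, adjusted p = 0.0458), with adjusted p from 0.0145 to 0.226, and also in the fit over gene means (adjusted p = 0.0291). RPC40 read 731, 671 and 649 in H2B K123R, against 642, 580 and 646 in wild type, a difference of 0.13 with replicate 1 and 0.084 without it (adjusted p = 0.402 and 0.555).

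Among the 5 subunits common to all 3 enzymes, differences were positive for 3 genes and negative for 2. RPB8 read 3312, 3802 and 3486 in H2B K123R, against 4248, 4196 and 4061 in wild type. These groups did not overlap, and the log2 difference was -0.24 with an interval of -0.42 to -0.06 (adjusted p = 0.109). RPO26, which encodes the subunit also called Rpb6 that clamps the largest subunit in place, read 2612, 2165 and 2302 in H2B K123R, against 2189, 2031 and 2109 in wild type (0.16 with replicate 1 and 0.082 without it, adjusted p = 0.326 and 0.480), with overlap. RPB5, RPB10 and RPC10 had differences of 0.15, -0.02 and 0.11 with replicate 1, and of 0.017, -0.13 and -0.13 without it. RPC10, the gene of the subunit also called Rpb12, spread widely in the mutant, at 1375, 991 and 680, while wild type read 930, 875 and 900.

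Pol II has 7 subunits of its own, of which 3 had positive and 4 negative differences. RPB2, the gene of the second-largest subunit, had the lowest adjusted p of all members. It read 2358, 2472 and 2238 in H2B K123R, against 1834, 1973 and 1944 in wild type, with no overlap. The log2 difference was 0.29 (SE 0.07, interval 0.12 to 0.47, 1.23-fold) with an adjusted p of 0.0609, and 0.29 again without H2B K123R replicate 1 (adjusted p = 0.0534). It passed in 3 of 14 alternatives over probe sets, with adjusted p from 0.0146 to 0.200, and over gene means (adjusted p = 0.0436).

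RPB4 encodes a stalk subunit that cells can live without, and read 577, 459 and 486 in H2B K123R, against 439, 417 and 393 in wild type. Here too the groups did not overlap (0.27, interval 0.01 to 0.53, adjusted p = 0.194), and the difference was 0.18 without replicate 1 (adjusted p = 0.234). RPB7, its partner in the stalk, lay on the other side, at 942 ± 82.3 in H2B K123R and 1055 ± 92.4 in wild type, with a difference of -0.16 (adjusted p = 0.377). RPB3 and RPB11, the alpha-like pair of Pol II, had differences of 0.06 and -0.05, and RPB9, a zinc-ribbon subunit gene with a part in start site choice, had -0.04. Without replicate 1 these were -0.15, -0.11 and -0.11. RPO21, which encodes the largest subunit with the repeated C-terminal tail, read 891, 2642 and 2467 in H2B K123R, against 2430, 3158 and 2713 in wild type. Replicate 1 alone was low. With it the difference was -0.61 (interval -1.57 to 0.35, adjusted p = 0.397), and without it -0.11 (interval -0.39 to 0.17, adjusted p = 0.605).

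Pol III has 10 subunits of its own, and 9 of them had positive differences, with a median of 0.14. Over all genes 60.4% were positive, with a median of 0.08. Without H2B K123R replicate 1, 6 of the 10 were positive and the median was 0.07, against 54.5% and 0.03 over all genes. RET1, which encodes the second-largest subunit, read 2464, 2137 and 2416 in H2B K123R, against 1943, 1751 and 1835 in wild type. Every mutant array was above every wild-type array, and the difference was 0.34 (SE 0.08, interval 0.14 to 0.54, 1.27-fold, adjusted p = 0.0631). RET1 passed in 4 of 14 alternatives over probe sets, with adjusted p from 0.00364 to 0.229, and over gene means (adjusted p = 0.0392). RPC37 encodes a subunit that acts in initiation and termination together with Rpc53, and read 597, 468 and 475 in H2B K123R, against 410, 333 and 331 in wild type. Its difference of 0.50 (interval 0.17 to 0.82, 1.41-fold) was the highest of all members, with an adjusted p of 0.0807. It passed in 2 of 14 alternatives over probe sets, with adjusted p from 0.0101 to 0.265, and over gene means (adjusted p = 0.0440), and was 0.39 without replicate 1 (adjusted p = 0.0825).

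The gene of its partner, RPC53, averaged 540 ± 76.7 in H2B K123R and 515 ± 40.7 in wild type, with a difference of 0.06, or -0.050 without replicate 1. Of the trimer that opens the promoter, RPC82 and RPC31 had differences of 0.23 and 0.15 with replicate 1 and of 0.084 and 0.055 without it. RPC34, the third gene of that trimer, was the exception in sign: it read 206, 207 and 183 in H2B K123R, against 277, 226 and 213 in wild type (-0.24, adjusted p = 0.311). Its groups did not overlap. The stalk genes RPC25 and RPC17 had differences of 0.31 (interval -0.02 to 0.65) and 0.07, and RPC11, whose product cleaves the nascent RNA and helps recycle the enzyme, had 0.14. Without replicate 1 these were 0.19, -0.029 and 0.075. RPO31, the gene of the largest subunit, read 917, 616 and 586 in H2B K123R, against 563, 684 and 657 in wild type. Here replicate 1 was the high array, and the difference was 0.13 with it and -0.07 without it.

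TFIIIC binds the internal promoters of Pol III genes and places TFIIIB, which recruits the enzyme. The groups overlapped for all 8 of these genes on their brightest probe sets, while 39.3% of all genes did not overlap. The dimmer probe set of TFC3 was lower on every H2B K123R array than on any wild-type array. Among the TFIIIC genes, TFC7 read 247, 162 and 183 in H2B K123R, against 201, 263 and 187 in wild type (-0.13 with replicate 1 and -0.30 without it, adjusted p = 0.705 and 0.288). TFC1 read 397, 378 and 381, against 431, 376 and 398 in wild type (-0.06, interval -0.27 to 0.16). TFC3, TFC4, TFC6 and TFC8 had differences of 0.08, -0.07, -0.06 and 0.06 with replicate 1, and of 0.17, -0.14, -0.0081 and -0.051 without it. The value of TFC4 rested on 1 array, since it read 259, 208 and 234 in H2B K123R, against 202, 205 and 358 in wild type, and the difference was 0.18 without wild-type replicate 3.

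The TFIIIB gene BDP1 read 175.5, 109.9 and 146.9 in H2B K123R, against 116.7, 123.1 and 122.4 in wild type (0.21 with replicate 1 and 0.067 without it, adjusted p = 0.499 and 0.805). BRF1, which encodes the TFIIB-related subunit, read 464, 337 and 394 in H2B K123R, against 411, 391 and 400 in wild type (-0.02, interval -0.32 to 0.28; -0.13 without replicate 1). MAF1 read 184, 92.8 and 121 in H2B K123R, against 149, 129 and 155 in wild type. Its highest and its lowest value were both in the mutant, and the difference was -0.15 with replicate 1 and -0.39 without it (adjusted p = 0.721 and 0.142).

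**Figure D2:**
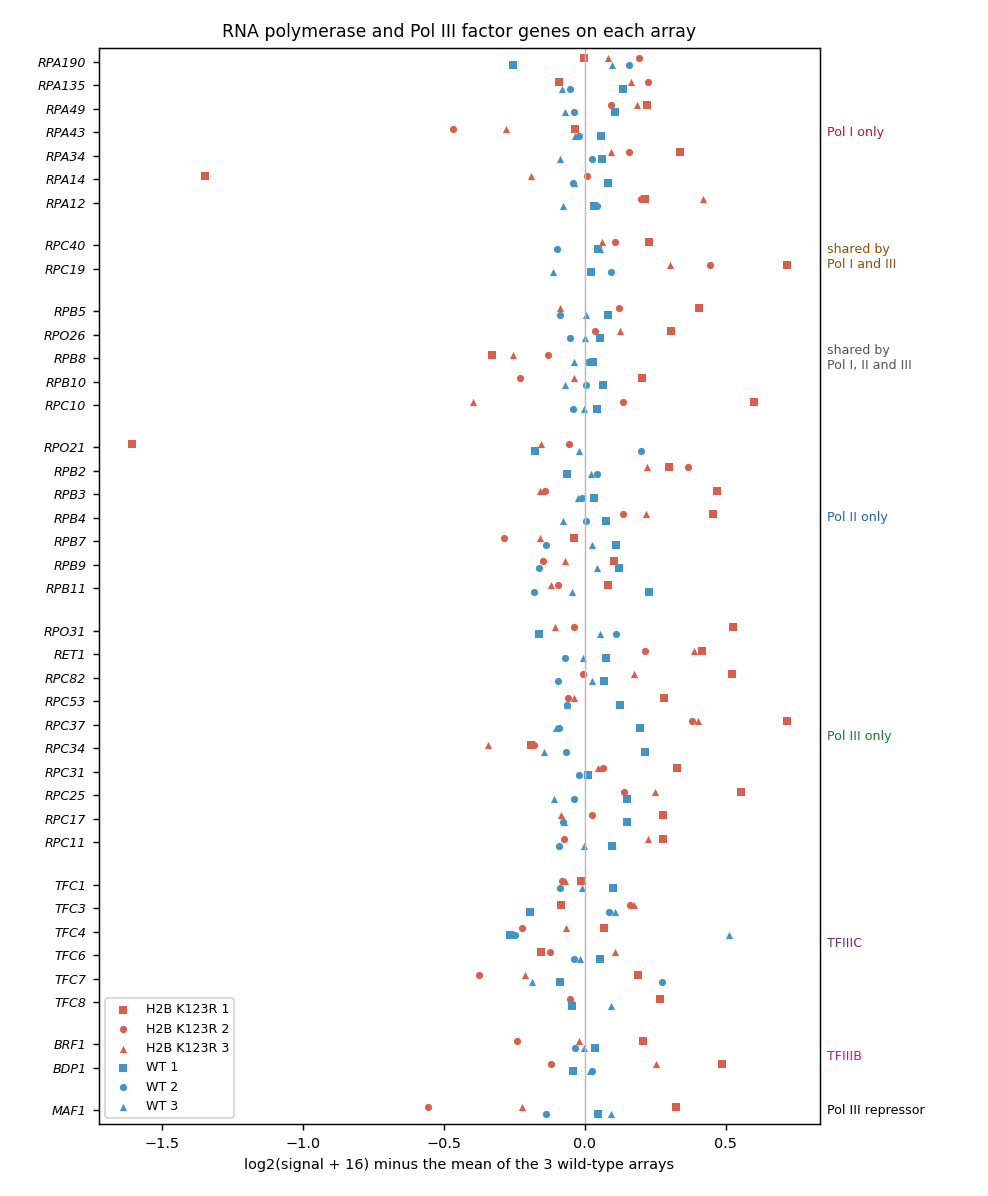
Each of the 40 genes on each of the 6 arrays, as log2(signal + 16) minus the mean of the wild-type arrays. Squares mark replicate 1 of each strain: in H2B K123R they lie to the right of the other points for many genes and far to the left for RPA14 and RPO21.

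The enzymes were set side by side by the median over their subunits. The median log2 difference was 0.10 over the subunits found only in Pol I, -0.04 over those only in Pol II and 0.14 over those only in Pol III. The pair shared by Pol I and III had 0.31, the subunits common to all had 0.11, TFIIIC had -0.06 and TFIIIB 0.09. The median over all genes was 0.08, or 0.03 without H2B K123R replicate 1. Without H2B K123R replicate 1 these medians were 0.14 for Pol I, -0.11 for Pol II, 0.065 for Pol III, 0.23 for the shared pair, -0.13 for the common subunits, -0.063 for TFIIIC and -0.032 for TFIIIB, so Pol I and Pol III changed order and the common subunits and TFIIIB changed sign. On the arrays of H2B K123R replicates 1, 2 and 3, the median of the Pol III subunits relative to wild type was 0.37, 0.01 and 0.11, that of the Pol II subunits 0.10, -0.10 and -0.12, and that of the Pol I subunits -0.0016, 0.16 and 0.09. Over all genes it was 0.21, 0.01 and 0.05, so replicate 1 was raised at the median gene. Its 99th percentile of signal was the lowest, at 8652, against 10221 to 11395 on the other arrays. Among wild-type arrays the median of the Pol III subunits ranged from -0.07 to 0.11. The difference between the medians of one enzyme and another was not tested, since the members were chosen as lists.

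**Figure D3:**
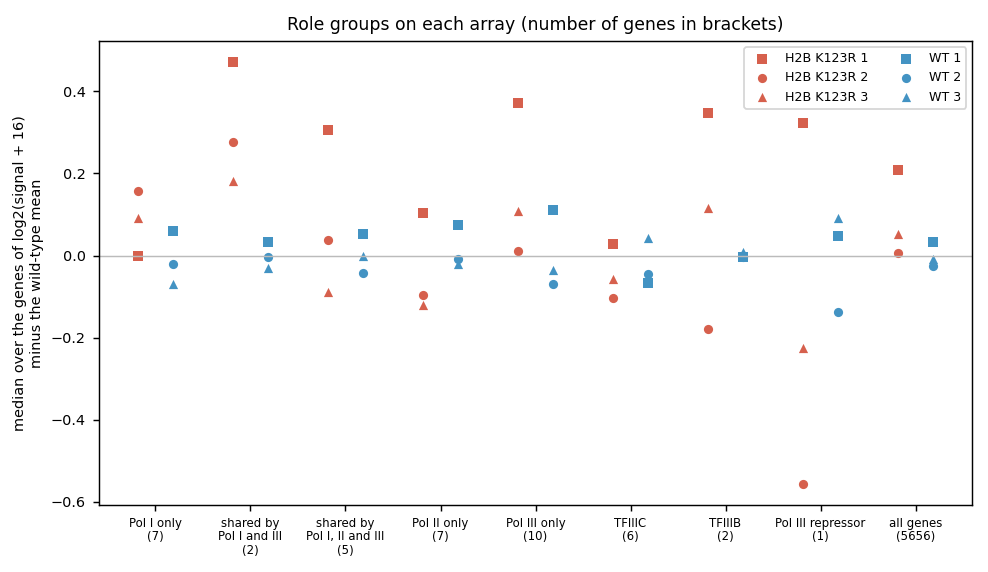
Median over the genes of each role group of log2(signal + 16) minus the wild-type mean, for each array, with all 5656 genes at the right. H2B K123R replicate 1 is the highest array in 7 of the 9 columns, all genes included, and apart from MAF1 the medians on the other H2B K123R arrays lie between -0.18 and 0.28.

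Counterparts at the same position of the enzymes were also compared within arrays. For 17 pairs of such genes, the log2 ratio of the signals was compared between the strains. An exact permutation test over arrays was used, which cannot go below exact p = 0.1 with 3 arrays in each group. No pair could therefore pass 0.05, and the test decides nothing about the pairs. The lowest adjusted p of this exact permutation test over the 17 pairs was 0.243, for the pairs at exact p = 0.1. The ratio did not overlap between the strains for 7 pairs (41.2%). Single genes did not overlap at 39.3% over the genome, but the share for ratios of other gene pairs was not computed. Many of the 17 pairs share a gene, so they are not independent. The ratio of the stalk genes RPA43 and RPC25 was lower on every mutant array than on any wild-type array: relative to the wild-type mean, its log2 was -0.59, -0.61 and -0.53 in H2B K123R, against -0.09, 0.02 and 0.07 in wild type (exact p = 0.1). RPB7 against RPC25 gave -0.59, -0.43 and -0.41 in H2B K123R and -0.04, -0.10 and 0.13 in wild type (exact p = 0.1). In the alpha-like pairs, RPC19 against RPB11 gave 0.63, 0.54 and 0.42 in H2B K123R, against -0.20, 0.27 and -0.07 in wild type (exact p = 0.1). For the second-largest subunits, RPB2 against RET1, the strains overlapped. The mean difference was -0.05 with H2B K123R replicate 1 (exact p = 0.9) and -0.0076 without it.

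The array of H2B K123R replicate 1 gave some member probe sets a far lower signal than the other mutant arrays. Below 0.5 times both of them lay 8 of the 47 member probe sets, those of RPO21 and RPA14, 5 of RPA190 and 1 of TFC3, against 7.53% of all probe sets. Counted by gene, on the brightest probe sets, these were RPO21 and RPA14, 2 of 40, against 3.11% of all genes. Over all probe sets the number was 698 on that array, 166 and 249 on the other H2B K123R arrays, and 149 to 203 on wild-type arrays. RPA190 is read by 7 probe sets. Its brightest, 8185_at, read 3041, 3484 and 3225 in H2B K123R, against 2550, 3396 and 3257 in wild type. On the same arrays 2592_s_at read 69.3, 1379 and 1208 in H2B K123R, against 1311, 1387 and 1295 in wild type. For 2591_s_at the values were 6.70, 321 and 215 in H2B K123R and 220, 263 and 242 in wild type. On that array the probe sets of 1 gene thus disagreed.

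Probe sets 2590_s_at and 2589_g_at of RPA190 had 20.2 and 35.0 on that array and 235 to 511 and 167 to 361 on the other mutant arrays. The remaining pair, 2593_s_at and 2588_at, read 1071 and 3.71 there. The log2 differences of the 7 probe sets lay between -1.50 and 0.09 on all arrays, and between -0.39 and 0.19 without replicate 1, and none passed in either fit. The probe sets of TFC3 differed in the same way: its brighter probe set read 124, 150 and 152 in H2B K123R, and its dimmer one 2.38, 36.9 and 20.1, against 41.1, 53.1 and 49.4 in wild type (-0.96 with replicate 1 and -0.54 without it, adjusted p = 0.169 and 0.129). On that array the 3' to 5' ratio was highest for the actin control and lowest for the TBP control, and their part in these values was not tested, and where the probe sets lie along the genes was not analysed here.

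**Figure D4:**
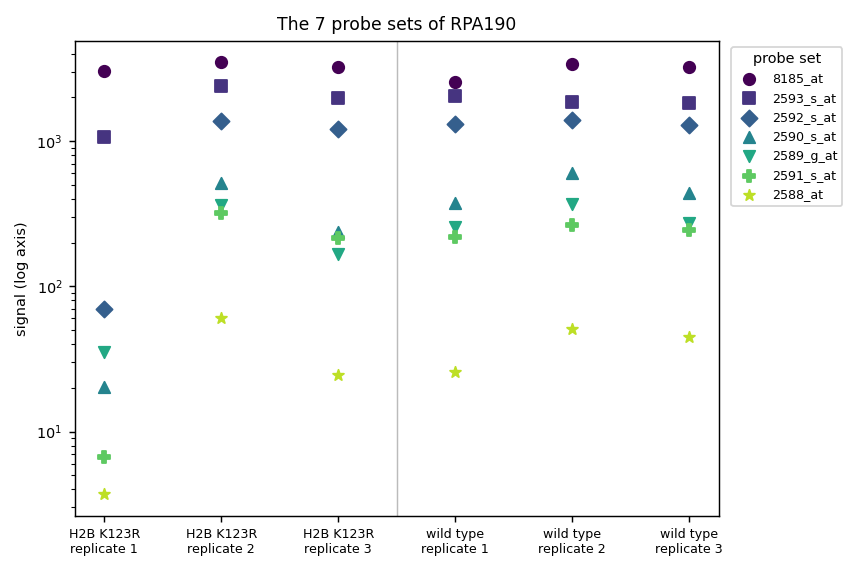
Signal of the 7 probe sets of RPA190 on each array, on a log axis. On H2B K123R replicate 1 all but the brightest probe set lie below the other arrays, by far for 2592_s_at, 2591_s_at and 2590_s_at.

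Other genes of the transcription machinery, taken from lists of initiation factors, Pol II tail enzymes, assembly factors, TFIIIA and Nhp6, Maf1 regulators and the mitochondrial polymerase, were measured for 59 of 61 names. Of these, 3 rose and 3 fell in H2B K123R (10.2%, against 8.98% of all genes; over probe sets, 4.22% of the array rose). RRN3, which encodes the factor that brings Pol I to its promoter, rose 1.46-fold: it read 544, 486 and 482 in H2B K123R, against 341, 317 and 362 in wild type (log2 difference 0.55, adjusted p = 0.0279). HMO1, whose product binds the ribosomal DNA, fell to 2677 ± 214 in H2B K123R, against 3665 ± 179 in wild type (-0.45, adjusted p = 0.0304). RRN10, a gene of the upstream activating factor of Pol I, fell to 103 ± 10.4 in H2B K123R, against 168 ± 15.2 in wild type (-0.63, adjusted p = 0.0403). The 3 changes among the 10 Pol I initiation genes thus had no common direction.

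GPN2, which encodes a GTPase of polymerase assembly, read 581, 509 and 579 in H2B K123R, against 422, 397 and 340 in wild type, and rose 1.42-fold (0.51, adjusted p = 0.0467). All 6 assembly and import genes had positive differences, with a median of 0.25, against 60.4% positive over all genes, but GPN2 alone passed. Without H2B K123R replicate 1, RBA50 went from 0.16 to -0.015 and the others stayed positive. CCL1, the cyclin gene of TFIIH, rose to 253 ± 14.1 in H2B K123R, against 179 ± 5.56 in wild type (0.46, adjusted p = 0.0457), as the only one of 18 Pol II general factor genes to pass. NHP6A, whose product bends DNA and aids Pol III initiation at the U6 gene, fell to 1507 ± 72.2 in H2B K123R, against 2004 ± 80.4 in wild type (-0.41, adjusted p = 0.0285). Its dimmer probe sets had differences of -0.29 and -0.32 and did not pass. Without H2B K123R replicate 1, 5 of the 59 passed, against 14.4% of all genes; GPN2 did not pass again (adjusted p = 0.0523). These calls were fragile: without H2B K123R replicate 2 only RRN3 passed, and without H2B K123R replicate 3 or wild-type replicate 1, 2 or 3 none of them did. With a block on the replicate number, none of these machinery genes passed either.

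**Figure D5:**
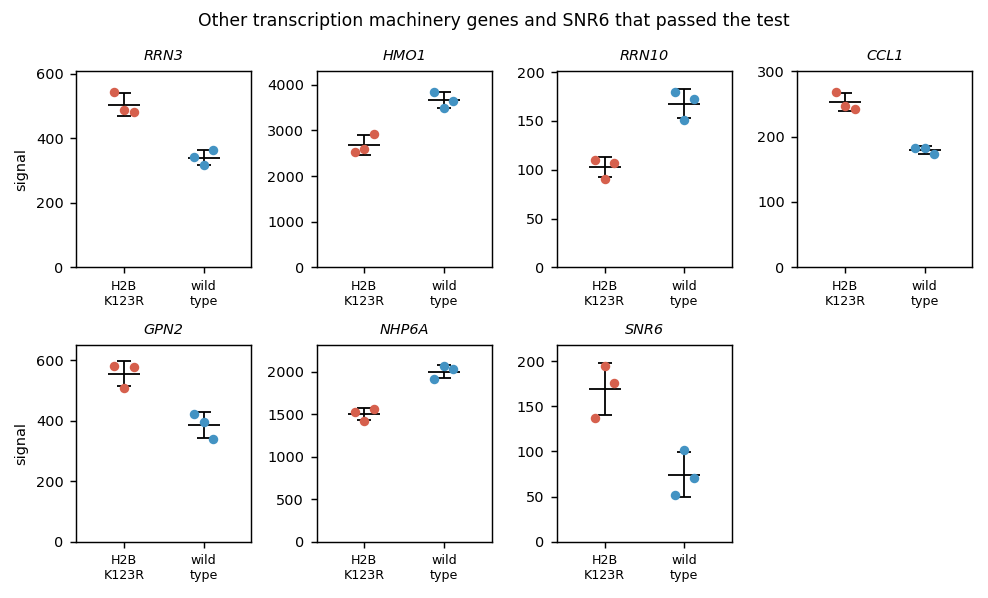
Signals of the 6 other machinery genes and of SNR6 that passed, with each array as a point and the mean ± SD of 3 arrays as bars. RRN3, CCL1, GPN2 and SNR6 are higher and HMO1, RRN10 and NHP6A lower in H2B K123R, with no overlap.

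Signals of the probe sets for transcripts that Pol III makes went different ways. Whether these signals come from mature RNAs, precursors or other RNAs was not tested. SNR6, the U6 spliceosomal RNA, rose 2.08-fold: it read 137, 195 and 175 in H2B K123R, against 51.47, 101.4 and 70.09 in wild type (log2 difference 1.06, adjusted p = 0.0475), and passed without H2B K123R replicate 1 but not when any one of the other arrays was left out. RPR1 and SNR52 had differences of -0.07 and 0.04 with H2B K123R replicate 1, and of 0.13 and 0.16 without it. SNR52 was dim, at 19.2 to 45.1 on all arrays. Of 4 listed Pol III transcripts other than transfer RNA, 3 were measured. The 92 probe sets for transfer RNA genes had mean signals with a median of 160 and a lowest value of 1.19. Of these probe sets, 45 fell and 0 rose, against 2.47% of all probe sets that fell. Their median difference was -0.68, and their median relative to wild type was -0.67, -0.61 and -0.71 on H2B K123R replicates 1, 2 and 3. The number that fell was 55 without H2B K123R replicate 1 and 39 without replicate 2, but 7 without replicate 3, and 5, 0 and 0 without wild-type replicates 1, 2 and 3. Many transfer RNA genes are near-identical copies, so these probe sets are not independent of each other.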

How the data were processed

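The deposited tables hold 1 intensity per probe set, linear and already scaled by the authors: after trimming 2% at each end, the mean of each array was 500.4 to 500.5. Per the labels' protocols, biotin-labelled RNA was hybridised to S98 arrays. Neither the summarization software nor a genome build is given in the sources used here. Detection calls were left out. The labels do not say that the cultures had separate starters, so a p-value here reflects the spread among these 3 cultures per strain, which may be technical, and precision is limited by the number of arrays. Of 9335 probe sets, 60 controls were set aside. The platform annotation pairs 6504 of the rest with 1 gene, 328 with several and 2443 with none, and the symbols equalled those of the R64 gene table for all 6504.

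Log2(signal + 16) was fitted with limma 3.58.1 in R 4.3.3 (variance trend, two-sided, Benjamini-Hochberg over 9275 probe sets, threshold 0.05); array medians differed by 0.09, so no further normalization was added. The fit was tested on simulated data. Members were described by rule: every gene is named, and the 2 with the smallest p in each role group are given on every array. RPA14, RPA34, RPO21, RPO31, RPC10, RPC34, TFC4 and probe sets of RPA190 and TFC3 were given by array, and RPR1, SNR52 and RBA50 named, after their values were seen. From the other lists, genes that passed were named, and otherwise the one with the smallest p. The members and lists were chosen with earlier results of these data known. Alternatives were other normalizations, pseudocounts of 1 and 64, a filter on dim probe sets, array weights, no variance trend, a block on the replicate number, the mean of a gene's probe sets and leaving out each array. A planned promoter motif search was not run, and promoter and protein sequences were not used here.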

Additional observations from a re-analysis of the deposited data

How the results depend on the processing

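The number of member probe sets that passed was 0 on all arrays, after quantile normalization, with other pseudocounts, without the variance trend and with the replicate block, but 5 after cyclic loess (RPC37, RPA43, RET1, RPB2 and RPC19), 3 among probe sets above the median signal (RET1, RPB2 and RPC19; 13.0% of the probe sets in that fit passed) and 11 with array weights, under which 31.1% of all probe sets passed, against 9.95% after cyclic loess. With the mean of a gene's probe sets, adjusted over 5656 genes, 4 genes passed (RPC19, RET1, RPB2 and RPC37), against 14.9% of all genes. Leaving out 1 array gave 0 to 2. Over the whole array 620 probe sets passed, 307 with the replicate block, 2885 with array weights and 22 to 1023 when 1 array was left out. The correlation of deviations between same-numbered arrays was 0.32, 0.38 and 0.05. In every case the highest correlation of an array was with its own number. With only 3 pairs this does not settle whether equal numbers mark pairs, and the labels do not say so. The main fit did not take the numbers as pairs.

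Of the 6 other machinery genes and SNR6 that passed, all but SNR6 were lost with the replicate block; cyclic loess lost CCL1, GPN2 and SNR6, and quantile normalization and no variance trend lost GPN2. Of 120 role group medians under alternatives, 113 stayed within 1 SD of the replicate spread. The exceptions were the Pol II subunits after cyclic loess (-0.16) and when 1 array was left out (-0.12 to 0.068), the subunits common to all with array weights (-0.047) and when 1 array was left out (-0.13 to 0.17), and TFIIIC after quantile normalization (-0.13), after cyclic loess (-0.17) and when 1 array was left out (-0.063 to 0.021). Of 654 member differences under alternatives, 617 kept their sign. After quantile normalization RPB3 had -0.034 and RPC53 -0.019. After cyclic loess RPB3 had -0.064, RPC17 -0.027, RPC53 -0.059, TFC3 -0.011 and TFC8 -0.0057. Array weights gave RPB3 -0.13, RPB5 -0.047, RPC10 -0.31, RPC17 -0.039, RPC53 -0.011, RPO31 -0.099, TFC6 0.084, TFC8 -0.058 and probe set 2593_s_at of RPA190 0.063. When 1 array was left out, the differences that changed sign had these ranges: BRF1 -0.13 to 0.092, MAF1 -0.39 to 0.049, RPA190 (2588_at) -0.97 to 0.0023, RPA190 (2591_s_at) -1.83 to 0.12, RPA190 (2593_s_at) -0.39 to 0.19, RPA190 (8185_at) -0.035 to 0.17, RPB10 -0.13 to 0.083, RPB11 -0.14 to 0.068, RPB3 -0.15 to 0.16, RPB9 -0.12 to 0.023, RPC10 -0.13 to 0.37, RPC17 -0.029 to 0.15, RPC53 -0.050 to 0.12, RPO31 -0.072 to 0.24, TFC3 (11322_at) -0.014 to 0.17, TFC4 -0.21 to 0.18, TFC7 -0.30 to 0.0023 and TFC8 -0.051 to 0.11. The cause of these changes was not tested.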

Other observations

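The members that yeast can live without (RPA12, RPA14, RPA34, RPA49, RPB4, RPB9 and MAF1) had a median log2 difference of 0.17 between H2B K123R and wild type, with 4 of 7 positive, and the 33 essential members one of 0.08, with 21 positive. Without H2B K123R replicate 1 these medians were 0.12, with 4 positive, and -0.029, with 15 positive and 18 negative. RPO41, the gene of the mitochondrial RNA polymerase, had a difference of 0.28 with replicate 1 and 0.15 without it (adjusted p = 0.319 and 0.503). Among 11 measured genes for kinases and a phosphatase that act on Maf1, none passed, against 8.98% of all genes. Their smallest p was that of SCH9, with a difference of 0.27 with replicate 1 and 0.14 without it (adjusted p = 0.289 and 0.427). SCH9 read 437, 366 and 304 in H2B K123R, against 307, 304 and 292 in wild type. DST1, which encodes the elongation factor TFIIS, had the smallest p of 9 measured Pol II tail and TFIIS genes, with groups that did not overlap and a difference of 0.32 with replicate 1 and 0.17 without it (adjusted p = 0.250 and 0.321). H2B K123R replicate 1 was the highest of the 6 arrays for 23 of the 40 members (57.5%), against 49.8% of all genes.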
